A study of Mus musculus and Acomys cahirinus with 2 samples.

Results

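Krt25, Krt27, Krt28, Krt35, Krt42, Krt71, Krt73 and Krt75 are 8 keratin genes that were chosen by their symbols, after earlier results of these data had shown inner root sheath keratins to differ between the libraries. Each symbol stood in 1 row of each gene list, so that all 8 were found among the 24509 genes of the Acomys list and among the 28692 genes of the Mus list. The data come from adult ear skin of Acomys cahirinus, a spiny mouse, and of Mus musculus, the house mouse, with 1 library for each species, both at day 0. Dissociated cells were profiled in droplets, and the 3′ ends of transcripts were counted as unique molecular identifiers (UMIs), which mark captured molecules. The labels give no strain, genotype, sex, treatment or number of animals, and the series text speaks of injured ears. With 1 library a species there are no replicates, no test was made, and species, animal, library and gene annotation cannot be told apart. Ranges given in parentheses after a value are its exact 95% interval, and no error other than that of counting is in them.

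Keratins form the intermediate filaments of epithelial cells, and each filament pairs a type I with a type II keratin. The inner root sheath is the tube of cells that moulds and guides the growing hair and then breaks down. It is built in growing follicles, and its layers (Henle's layer, Huxley's layer and the cuticle) carry keratins of their own, set in the matrix protein trichohyalin. The companion layer is the flat cell layer between the inner and the outer root sheath. Krt25, Krt27 and Krt28 are type I keratins of the inner root sheath, Krt71 and Krt73 are type II keratins of it, and Krt75 is the type II keratin known from the companion layer. Krt35 is known as a type I keratin of the hair shaft and Krt42, in mouse, as a type I keratin of the nail, so that 2 of the 8 carry a role that the name of the group does not give.

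In the mouse genome (GRCm38, GENCODE vM21 annotation) all 8 are protein-coding genes on the minus strand. The type I genes lie on chromosome 11, with Krt25 (ENSMUSG00000035831) at chr11:99315516-99322951, Krt27 (ENSMUSG00000017588) at chr11:99345565-99351104 and Krt28 (ENSMUSG00000055937) at chr11:99364872-99374903, all 3 within 59.4 kb. Krt35 (ENSMUSG00000048013) at chr11:100092193-100096241 and Krt42 (ENSMUSG00000053654) at chr11:100262882-100269871 lie farther along the same chromosome. The type II genes lie on chromosome 15, with Krt75 (ENSMUSG00000022986) at chr15:101563345-101573904, Krt71 (ENSMUSG00000051879) at chr15:101733949-101743109 and Krt73 (ENSMUSG00000063661) at chr15:101793308-101802346. The Acomys list gives symbols without coordinates, and no Acomys sequence was used here. Of the 31-base words in the last 500 bases of the mouse transcripts, 11.9% of those of Krt27 and 8.30% of those of Krt28 also occur in another of the 3 neighbouring genes Krt25, Krt27 and Krt28, so that counts of Krt27 and Krt28 are the least certain to belong to 1 gene. The share was 2.32% for Krt42, 0.847% for Krt35 and 0 for Krt25, Krt71, Krt73 and Krt75.

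The mouse promoters of the 5 inner root sheath keratins are shown because these 5 genes were found together in the same cells, while Krt35, Krt42 and Krt75 were not. Each is the RefSeq window (GRCm38.p6) from 250 bases before to 50 bases after the start site, read 5′ to 3′ along the gene. Capitals mark 3 motifs, each searched on both strands, with no matches overlapping in the members. The first is TATAAA, found upstream of many start sites. The second is GATAA, the core bound by the family of Gata3. The third is CTTTGA, a core bound by TCF and LEF proteins.
Krt25, chr11:99322902-99323201, minus strand: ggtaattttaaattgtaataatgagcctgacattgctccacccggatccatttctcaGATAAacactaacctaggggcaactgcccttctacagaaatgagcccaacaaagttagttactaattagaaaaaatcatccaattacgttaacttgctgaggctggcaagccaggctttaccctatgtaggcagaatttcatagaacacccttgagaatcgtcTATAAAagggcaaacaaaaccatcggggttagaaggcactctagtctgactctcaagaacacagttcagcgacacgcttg
Krt27, chr11:99351069-99351368, minus strand: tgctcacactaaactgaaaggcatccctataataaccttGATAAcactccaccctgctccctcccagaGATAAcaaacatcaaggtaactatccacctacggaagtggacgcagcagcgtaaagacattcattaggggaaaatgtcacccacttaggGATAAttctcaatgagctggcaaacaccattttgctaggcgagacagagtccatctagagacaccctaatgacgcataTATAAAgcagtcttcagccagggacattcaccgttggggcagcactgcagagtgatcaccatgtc
Krt28, chr11:99374854-99375153, minus strand: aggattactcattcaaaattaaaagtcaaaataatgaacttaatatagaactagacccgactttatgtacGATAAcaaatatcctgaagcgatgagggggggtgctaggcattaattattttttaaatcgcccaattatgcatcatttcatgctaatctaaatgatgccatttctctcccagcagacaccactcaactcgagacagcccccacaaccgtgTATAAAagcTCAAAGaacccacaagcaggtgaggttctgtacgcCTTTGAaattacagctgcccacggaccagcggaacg
Krt71, chr15:101743048-101743347, minus strand: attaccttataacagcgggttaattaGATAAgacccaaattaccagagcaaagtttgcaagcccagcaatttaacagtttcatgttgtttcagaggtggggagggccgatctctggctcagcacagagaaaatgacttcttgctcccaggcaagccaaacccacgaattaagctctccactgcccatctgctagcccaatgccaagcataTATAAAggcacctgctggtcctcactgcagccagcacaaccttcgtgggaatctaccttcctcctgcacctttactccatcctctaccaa
Krt73, chr15:101802311-101802610, minus strand: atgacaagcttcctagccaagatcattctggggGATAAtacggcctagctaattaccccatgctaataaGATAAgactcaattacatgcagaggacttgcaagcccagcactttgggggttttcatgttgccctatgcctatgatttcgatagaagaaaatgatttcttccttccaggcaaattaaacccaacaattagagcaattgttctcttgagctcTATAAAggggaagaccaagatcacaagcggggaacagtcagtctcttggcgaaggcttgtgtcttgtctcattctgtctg
TATAAA stood in all 5 of these windows, at 30 bases before the start site in Krt25, Krt28 and Krt73, 40 in Krt71 and 15 in Krt27. It also stood in the window of Krt42, at position +20 past the start site, and so in 6 of the 7 members with a promoter entry. GATAA also stood in all 5, once in Krt25, Krt28 and Krt71, at 3 places in Krt27 and at 2 in Krt73, and in neither of the windows of Krt42 and Krt75. CTTTGA stood only in Krt28, once on each strand, among the 7 members with a promoter entry. Over 32851 mouse promoter windows of this length, 13.6% held TATAAA, 25.4% held GATAA and 16.0% held CTTTGA. A match of letters is a description of the window and not a bound site.

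The Acomys library held 71042559 UMIs, with 4603 cells kept at a median of 7533 UMIs, and the Mus library held 130039670 UMIs, with 6556 cells kept at a median of 11772.5 UMIs. Cells of each library were clustered without the 8 keratins, and clusters that carried hair follicle markers such as Krt17, Sox9, Lhx2 and Postn were called follicle-like. They held 1185 cells in 5 clusters in Acomys (median 4325 UMIs) and 887 cells in 4 clusters in Mus (median 7463 UMIs), against 3418 other cells in Acomys (median 8529.5 UMIs) and 5669 in Mus (median 12580 UMIs). Levels are CPM, the usual scaling of counts to the total of the class, taken over the 15688 symbols present in both gene lists. Barcodes with 1 to 10 UMIs, which are taken to hold mostly free RNA, numbered 377498 in Acomys and 471842 in Mus. Of the cell barcodes, 32 occurred in both libraries.

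In Acomys all 8 keratins were higher in follicle-like cells than in all other cells, most of them more than 20-fold, and in Mus they were rare in every cell class. A level at least 4-fold higher in follicle-like cells was found for 8 of 8 members in Acomys, where it was found for 2.72% of all genes with at least 10 UMIs, and for 2 of the 5 members so measured in Mus (Krt42 and Krt71), where it was found for 4.55% of genes. The members were chosen with such values known, so these counts describe the choice. Between the libraries, 8 of 8 members were at least 4-fold higher in Acomys than in Mus follicle-like cells, a difference that 7.57% of genes showed, and 7 of 8, all but Krt28, in the other cells, where 9.4% of genes showed it. For Krt25, Krt27, Krt28, Krt71 and Krt73 the Acomys follicle value rests on 11 cells, described further on. Without the cells that held at least 10 UMIs of these 5 keratins summed, an alternative chosen after seeing the data, 3 of 8 members (Krt35, Krt42 and Krt75) stayed at least 4-fold higher in Acomys follicle-like cells than in the other cells.

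**Figure D1:**
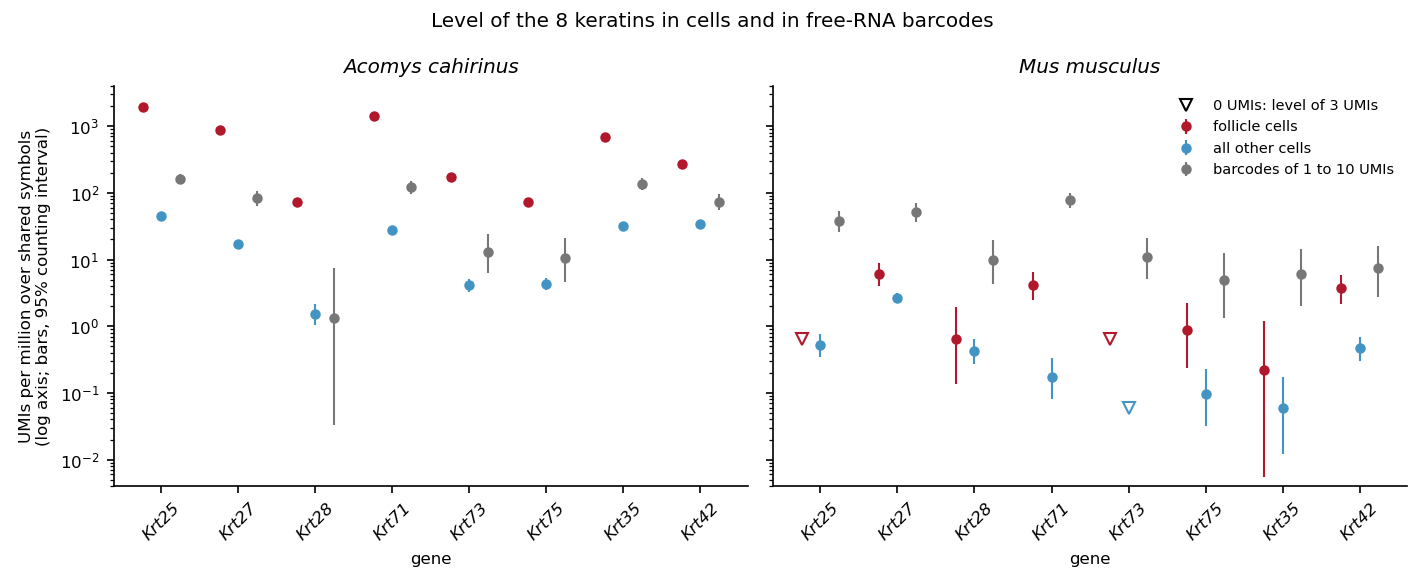
CPM of the 8 keratins (log axis) in follicle-like cells, all other cells and barcodes of 1 to 10 UMIs of Acomys (left) and Mus (right); points are levels of 1 library, bars are 95% counting intervals, and open triangles mark 0 UMIs at the level that 3 UMIs would give. In Acomys the follicle-like cells stand above the free RNA for every gene, with Krt28 free RNA on 1 UMI. In Mus they stand below it, but for Krt42 not beyond counting error (ratio 0.503, 0.189 to 1.56), and for Krt75 on 4 UMIs in each class.

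Krt25, a type I keratin of all 3 layers of the inner root sheath, had 8716 UMIs or 1943 CPM in Acomys follicle-like cells and 981 UMIs or 44.9 CPM in the other Acomys cells, a ratio of 43.2 (40.5 to 46.2). Mus follicle-like cells held 0 Krt25 UMIs and the other Mus cells 27, or 0.527 CPM. Krt25 was thus at least 2970-fold higher in Acomys than in Mus follicle-like cells, taking 3 UMIs as the limit for a count of 0 in the Mus class, and 85.3-fold higher (58.2 to 130) in the other cells. Without the high cells, Krt25 was at 43.2 CPM in Acomys follicle-like cells, and its ratio to the other cells was 0.982 (0.836 to 1.15), which leaves no difference between these classes beyond counting error.

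Krt27, the type I neighbour of Krt25, had 865 CPM in Acomys follicle-like cells and 16.9 CPM in the other Acomys cells, a ratio of 51.2 (46.0 to 57.1). In Mus it had 28 UMIs or 6.11 CPM in follicle-like cells and 138 UMIs or 2.69 CPM in the other cells, a ratio of 2.27 (1.45 to 3.42). With Mus cluster 19, unnamed cells that carried 4 follicle markers, counted as follicle-like, a choice made after seeing the data, Krt27 was at 10.0 CPM in Mus follicle-like cells, and its ratio to the other cells was 4.39 (3.08 to 6.16), past the 4-fold limit, so that 3 of the 5 members measured in Mus passed it. Krt27 was the member with the most UMIs in Mus cells, and its ratio of Acomys to Mus was 142 (97.8 to 213) in follicle-like cells and 6.28 (5.15 to 7.69) in the other cells. Krt28, the third type I gene of the locus, had 72.0 CPM in Acomys follicle-like cells and 1.51 CPM in the other Acomys cells, a ratio of 47.6 (33.2 to 70.4). Mus follicle-like cells held 3 Krt28 UMIs and the other Mus cells 22, so that no difference between them was detectable (ratio 1.52, 0.292 to 5.07). Without the high cells the Acomys follicle ratio was 1.32 (1.04 to 1.65) for Krt27 and 1.20 (0.480 to 2.66) for Krt28, and the ratio of Acomys to Mus follicle-like cells was 3.65 (2.38 to 5.78) for Krt27 and 2.78 (0.668 to 16.3) for Krt28.

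Krt71, the type II keratin of all inner root sheath layers and the gene of the mouse Caracul coat mutants, had 1415 CPM in Acomys follicle-like cells and 27.8 CPM in the other Acomys cells, a ratio of 50.9 (46.8 to 55.4). In Mus it had 19 UMIs or 4.14 CPM in follicle-like cells and 9 UMIs or 0.176 CPM in the other cells, a ratio of 23.6 (10.2 to 59.2). Krt71 was therefore the inner root sheath keratin whose few Mus UMIs stood mostly in follicle-like cells. Krt73, in human a type II keratin of the inner root sheath cuticle, had 172 CPM in Acomys follicle-like cells and 4.12 CPM in the other Acomys cells, a ratio of 41.7 (33.5 to 52.5). It had no UMI in any of the 6556 Mus cells, although 30 Krt73 UMIs stood in the Mus barcodes that were not cells. Without the high cells the Acomys follicle ratio was 1.39 (1.17 to 1.65) for Krt71 and 1.16 (0.684 to 1.88) for Krt73.

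Krt75, the companion layer keratin, had 331 UMIs or 73.8 CPM in Acomys follicle-like cells and 95 UMIs or 4.35 CPM in the other Acomys cells, a ratio of 17.0 (13.5 to 21.5). Mus cells held 9 Krt75 UMIs in all, 4 in follicle-like and 5 in other cells. Krt35, the hair shaft keratin, had 3058 UMIs or 682 CPM in Acomys follicle-like cells and 688 UMIs or 31.5 CPM in the other Acomys cells, a ratio of 21.6 (19.9 to 23.5). Mus cells held 4 Krt35 UMIs in all, 1 in a follicle-like cell, which gives a ratio of Acomys to Mus follicle-like cells of 3126 with a wide interval (561 to 123501). Krt42, the nail keratin, had 267 CPM in Acomys follicle-like cells and 34.5 CPM in the other Acomys cells, a ratio of 7.73 (7.05 to 8.48), and in Mus 17 UMIs or 3.71 CPM in follicle-like cells and 24 UMIs or 0.468 CPM in the other cells, a ratio of 7.91 (3.99 to 15.4). Krt42 was the member whose contrast between follicle-like and other cells had nearly the same size in both libraries, at levels 72.0-fold (44.8 to 124) and 73.7-fold (49.2 to 116) higher in Acomys. These 3 genes moved little without the high cells, to Acomys follicle ratios of 17.0 for Krt75, 22.0 for Krt35 and 7.89 for Krt42.

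The level of the same genes in free RNA sets how much of the signal in other cells can be read. In Acomys the 8 keratins together stood at 5488 CPM in follicle-like cells, 166 CPM in all other cells and 602 CPM in barcodes of 1 to 10 UMIs. In Mus they stood at 15.7 CPM in follicle-like cells, 4.45 CPM in all other cells and 206 CPM in barcodes of 1 to 10 UMIs. The other cells were thus at 0.275 of the free-RNA level (0.250 to 0.304) in Acomys and at 0.0216 (0.0176 to 0.0265) in Mus, and Mus follicle-like cells at 0.0761 (0.0569 to 0.101). By gene, Acomys other cells lay below the free RNA for every member but Krt28, whose free-RNA level rests on 1 UMI. In Acomys Krt25 had 162 CPM and Krt71 121 CPM in the free RNA, against 38.1 and 77.4 CPM in Mus free RNA. The 5 inner root sheath keratins were 2.03-fold higher (1.66 to 2.48) in Acomys than in Mus free RNA, whereas they were 410-fold higher (311 to 552) in follicle-like cells and 40.9-fold higher (38.8 to 43.2) over all barcodes.

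Shares of cells with a UMI were set at 1 depth by thinning each cell to 2500 UMIs, which left out no cell. A UMI of any of the 8 keratins was then found in 57.5% of Acomys follicle-like cells (54.6 to 60.3) and 23.9% of the other Acomys cells (22.5 to 25.3), against 74.3% and 58.7% before thinning. Blood endothelium-like cells, which should lack these genes, gave 27.2% in Acomys (17.9 to 38.2, 81 cells, median 3383 UMIs), so the share over all other Acomys cells was not above that class. Single clusters among them stood higher, with Krt42 at 151 CPM in cluster 7 and Krt35 at 169 CPM in cluster 22, against median clusters of 37.9 and 34.2 CPM. In Mus the shares were 3.27% of follicle-like cells (2.2 to 4.66) and 0.547% of the other cells (0.372 to 0.775), against 6.54% and 2.95% before thinning. The 42 Mus endothelium-like cells (median 5544.5 UMIs) held none, which allows a share of up to 7.14% when 3 cells are taken as the limit for a count of 0. For Krt25 and Krt71 singly, the thinned shares in Acomys follicle-like cells, 8.95% and 8.44%, were not above those in Acomys endothelium-like cells, 9.88% (4.36 to 18.5) and 11.1% (5.21 to 20). The source of these UMIs was not tested. Krt35 and Krt42 stood above the endothelium-like class, with thinned shares in Acomys follicle-like cells of 27.3% (24.8 to 30) and 19.7% (17.5 to 22.1) and in endothelium-like cells of 6.17% (2.03 to 13.8) and 3.70% (0.770 to 10.4).

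The proportions of the 5 inner root sheath keratins to each other were similar in the Acomys classes as wholes, but the follicle-like values rest mostly on the high cells. Krt25 made up 43.5% of their UMIs in follicle-like cells (42.8 to 44.2), 47.2% in the other cells (45 to 49.3) and 42.6% in barcodes of 1 to 10 UMIs (36.8 to 48.5). Krt71 made up 31.7% in follicle-like cells, 29.2% in the other cells and 31.8% in barcodes of 1 to 10 UMIs. Krt27 made up 19.4% in follicle-like cells, 17.7% in the other cells and 21.8% in barcodes of 1 to 10 UMIs. The differences between follicle-like and other Acomys cells were small, although for Krt25 they exceeded counting error. In Mus the proportions differed between classes: Krt27 made up 56.0% of the 50 UMIs in follicle-like cells (41.3 to 70.0), 70.4% of the 196 UMIs in the other cells (63.5 to 76.7) and 27.5% of the 153 UMIs in the free RNA (20.6 to 35.2). Krt71 made up 38.0% in Mus follicle-like cells, 4.59% in the other Mus cells and 41.2% in Mus free RNA. The Krt27 UMIs of Mus cells therefore stood in another proportion than in Mus free RNA.

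**Figure D2:**
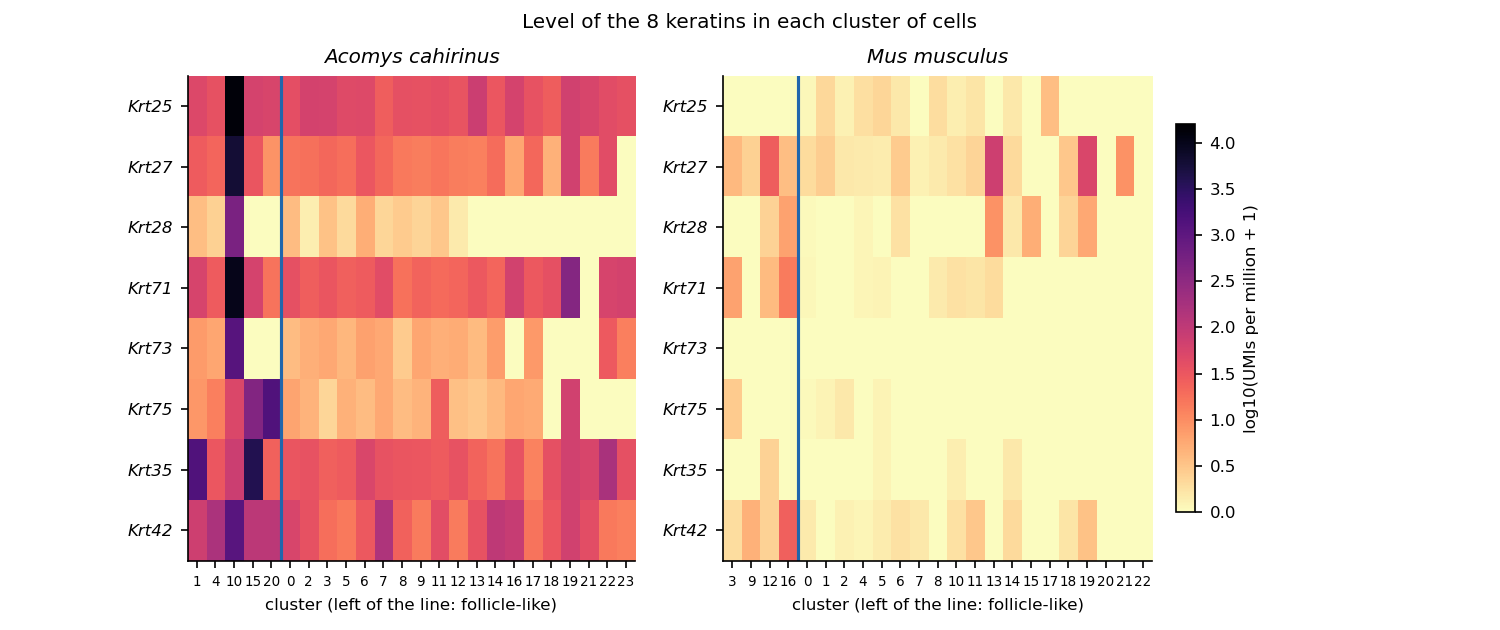
Level of the 8 keratins, as log10 of CPM plus 1, in each cluster of Acomys (left) and Mus (right) cells, with follicle-like clusters left of the blue line. The 5 inner root sheath keratins peak in Acomys cluster 10, Krt75 in clusters 20 and 15 and Krt35 in clusters 15 and 1, and in Mus the darkest field is Krt27 in cluster 13.

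Across the 24 Acomys clusters, Krt25, Krt27, Krt28, Krt71 and Krt73 all peaked in cluster 10, a follicle-like cluster of 164 cells led by Ier3, Igfbp7, Cst6 and Krt17. There Krt25 had 13592 CPM (13306 to 13884), while the next cluster had 74.3 CPM and the median cluster 43.3 CPM. Krt71 had 9844 CPM in cluster 10, Krt27 had 6022, Krt73 had 1196 and Krt28 had 502. Cluster 10 held 3.56% of the cells and 88.6% of the UMIs of the 5 keratins in cells. Its levels of these 5 rest on 11 of its 164 cells, described further on. For Krt25, Krt27, Krt28 and Krt73 the clusters next below it had overlapping intervals. For Krt71 cluster 19, an unnamed group of 36 cells whose leading genes include the erythroid gene Alas2, came next at 395 CPM (145 to 861) on 6 UMIs.

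Krt42 also peaked in cluster 10, with 1161 CPM (1078 to 1248) and a UMI in 62.8% of its cells, but it was spread further, with 162 CPM (145 to 181) in cluster 4, led by Krt79, and 151 CPM (126 to 180) in cluster 7, which do not differ beyond counting error. Krt35 was highest in cluster 15, with 3918 CPM (3659 to 4190), a group of 81 cells led by Crip1 and Krt15, and next in cluster 1, with 1369 CPM (1311 to 1429), 570 cells led by S100a4, Aspn, Krt15 and Wif1. Cluster 22, 27 unnamed cells that carried collagen and cartilage markers such as Col1a1 and Col2a1, came next at 169 CPM (87.1 to 295) on 12 UMIs, and cluster 10 followed at 74.7 CPM (54.9 to 99.4), with overlapping intervals. Krt75 was highest in cluster 20, with 1371 CPM (1176 to 1589) in 32 cells led by Krt17 and Krt79, next in cluster 15, with 405 CPM (325 to 499), and stood at 50.9 CPM in cluster 10. Over the 24 Acomys clusters, log2 levels of Krt25 had a Pearson r of 0.83 with Krt27 and 0.76 with Krt71, but 0.13 with Krt35 and 0.29 with Krt75, a description over clusters that share 1 library.

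In Mus the few UMIs in cells had other places. Krt27 was highest in cluster 13, sebocyte-like cells with Scd1, Pparg and Cidea, at 70.5 CPM (55.0 to 89.1), with a UMI in 37 of 134 cells. It stood at 53.8 CPM (33.7 to 81.4) in cluster 19, 48 cells that carried cell cycle markers such as Mki67 and Top2a, which does not differ from cluster 13 beyond counting error. Cluster 19 also carried 4 follicle markers (Krt79, Sox9, Sostdc1 and Aldh3a1) and stayed unnamed because none of them was among its 10 leading genes, which held the sebocyte marker Mgst1. Cluster 12, follicle-like cells with Lgr5, Cd34 and Lhx2, followed at 26.2 CPM (15.5 to 41.5). Krt25 had 0 UMIs in all 3 of these clusters. Krt28 was also highest in cluster 13, on 8 UMIs. Krt42 was highest in cluster 16, follicle-like cells led by Krt15 and Krt17, at 24.2 CPM (11.1 to 46) on 9 UMIs, above cluster 9 at 3.81 CPM (1.24 to 8.88). Krt71 was also highest there, at 13.5 CPM (4.37 to 31.4) on 5 UMIs, which does not differ beyond counting error from 5.42 CPM (2.80 to 9.46) in cluster 3, also follicle-like. In Acomys sebocyte-like cells Krt27 had 14.3 CPM (6.83 to 26.2) on 10 UMIs in 111 cells, against 36.1 CPM (28.1 to 45.6) in all 224 Mus sebocyte-like cells, and Krt28 had 0 UMIs in Acomys and 12 UMIs or 6.19 CPM (3.20 to 10.8) in Mus sebocyte-like cells. Among the cell classes named in both libraries, sebocyte-like cells were the class in which a member, Krt27 or Krt28, had a higher level in Mus than in Acomys. Mouse Krt27 and Krt28 share part of their 3′ ends, so the division of these UMIs between them is uncertain.

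Single cells showed that the Acomys signal of the inner root sheath keratins came from very few of them. Of the 4603 Acomys cells, 12 held at least 10 UMIs of Krt25, Krt27, Krt28, Krt71 and Krt73 summed, between 20 and 5545 with a median of 1465. The lowest values inside this limit were 20, 278 and 450 UMIs, and the highest outside it were 9, 7 and 7. The 12 cells held 88.5% of the UMIs of the 5 genes in cells, and in them the 5 genes made up a median of 13.0% and up to 35.9% of all UMIs of the cell. Of the 12 cells, 11 lay in cluster 10 and 1 in cluster 3, a suprabasal keratinocyte-like cluster, the last with 20 Krt25 UMIs and none of the others. All 5 keratins were found together in 9 of the 12 cells.

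**Figure D3:**
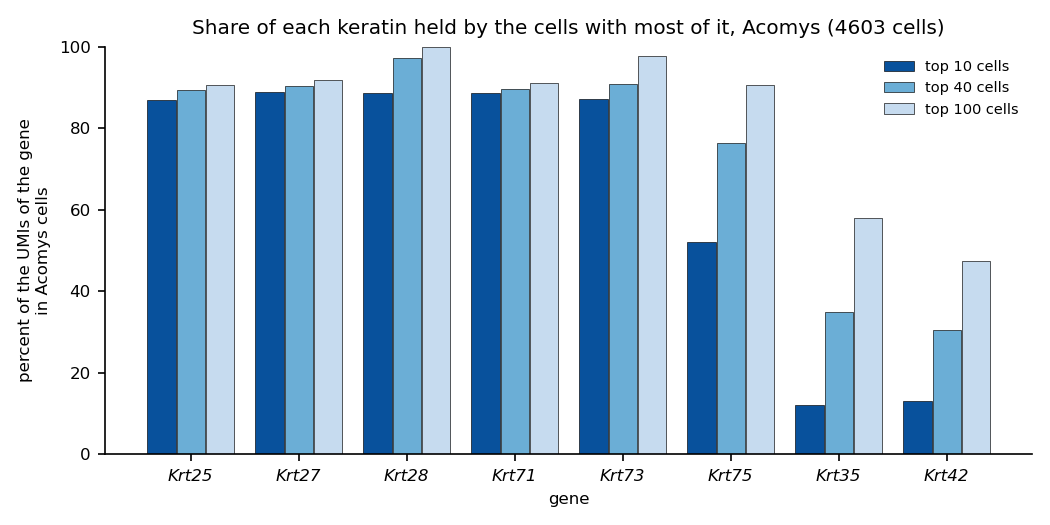
Share of the UMIs of each keratin in Acomys cells (vertical axis, percent) that was held by the 10, 40 and 100 cells with most of it; bars start at 0. The top 10 cells held 87.0% of Krt25 and 88.7% of Krt71 UMIs, 52.1% of Krt75, 12.1% of Krt35 and 13.0% of Krt42.

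Among the 12 cells, Krt25 had 20 to 2686 UMIs with a median of 578, Krt71 0 to 1910 with a median of 411, Krt27 0 to 852 with a median of 280.5, Krt73 0 to 202 with a median of 38.5 and Krt28 0 to 101 with a median of 10.5. The 8 cells with most of the 5 keratins were rich in Krt25, Krt27 and Krt71. The next 3 were different, with 7, 13 and 13 Krt71 UMIs, 101, 58 and 31 Krt28 UMIs and 202, 119 and 90 Krt73 UMIs. The 8 cells held 301 to 1910 Krt71 UMIs, so that the cells did not overlap in Krt71, whereas they overlapped in Krt28, with 0 to 72 UMIs in the 8, and in Krt73, with 0 to 128 UMIs in the 8. Krt72, in human a type II keratin of the inner root sheath cuticle, had 19 UMIs in follicle-like cells and all 19 were in 2 of these 3 cells, with 18 in the cell that also held 6 UMIs of Krt26, another type I keratin of the inner root sheath. Trichohyalin (Tchh) had 30 to 222 UMIs in each of the 8 cells and 9, 1 and 2 in the 3 others. Gata3, a regulator of inner root sheath fate in mouse, had 2, 5 and 1 UMIs in the 3 cells and 1 UMI over the 8. These subsets were seen in the values and were not tested.

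**Figure D4:**
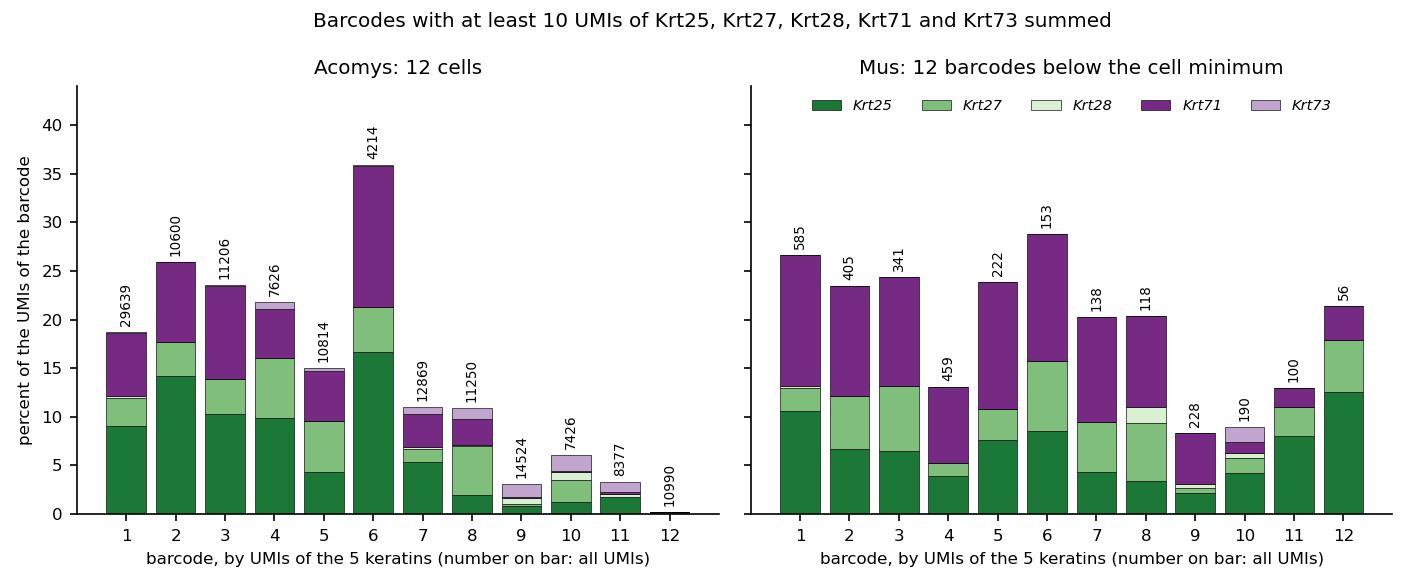
Percent of all UMIs of a barcode that belong to Krt25, Krt27, Krt28, Krt71 and Krt73 (stacked bars), for the 12 Acomys cells (left) and the 12 Mus barcodes (right) with at least 10 UMIs of the 5 genes, with all UMIs of the barcode on top of each bar. The Acomys bars belong to barcodes of 4214 to 29639 UMIs and the Mus bars to barcodes of 56 to 585 UMIs.

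Krt35, Krt42 and Krt75 were nearly absent from the 12 cells, with 4, 0 and 5 UMIs in all. The cells with at least 10 UMIs of these genes were others. For Krt35 they numbered 110, of which 73 lay in cluster 1 and 33 in cluster 15, and the highest held 51 UMIs. For Krt42 they numbered 29, of which 22 lay in cluster 10 and 5 in cluster 4. For Krt75 they numbered 9, of which 6 lay in cluster 20. None of the cells high in Krt35, Krt42 or Krt75 was among the 12 high in Krt25. These high cells were only 110, 29 and 9 of the 4603 Acomys cells. Unrelated genes could also share no cell at such counts, so this lack of overlap alone does not set the genes apart. Between Krt35 and Krt75, 2 cells were high in both, which is 1.82% of the first and 22.2% of the second. Krt25, Krt27, Krt28, Krt71 and Krt73 stood together in cells that also held trichohyalin, as the name of the group says. Of the 3746 Krt35 and 1952 Krt42 UMIs in Acomys cells, the 12 cells held 4 and 0. By UMIs, Krt35 and Krt42 stood mostly in other follicle-like cells, and their values go against the inner root sheath part of that name. Whether either belongs to the companion layer was not tested, and most cells high in Krt42 lay in cluster 10 as well. The cells high in Krt75 were too few to name a layer, and cluster 15, where Krt35 peaked, came second for Krt75.

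Mus barcodes rich in the 5 inner root sheath keratins lay below the size of a cell. No Mus cell held 10 UMIs of the 5 genes, and the highest held 7. Below the cell minimum of 4695 UMIs, 12 Mus barcodes held 12 to 156 UMIs of them, a median of 20.9% of all UMIs of the barcode (8.33% to 28.8%), although these barcodes had only 56 to 585 UMIs in all. Together they held 604 of the 1401 UMIs of the 5 genes in the whole Mus library, which is 43.1%, while all Mus cells held 17.6%. In Acomys the 12 cells held 57.4% of the 34065 UMIs in the library and all cells 64.9%. Over the 12 Mus barcodes Krt71 had 292 UMIs, Krt25 had 197, Krt27 had 107, Krt28 had 5 and Krt73 had 3, and Krt71 and Krt25 were found in every one. Tchh had 52 UMIs in 10 of these 12 barcodes, Krt17 had 1 and Krt35 and Krt42 had 0. In Acomys 14 barcodes below the cell minimum of 2872 UMIs held 10 to 551 UMIs of the 5 genes, and 2 more were left out as likely doublets. The comparison of follicle-like cells between the species therefore sets Acomys cells that include some rich in these keratins against Mus cells that do not, and the part played by the cell minimum was not tested beyond the alternatives tried.

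The genes that the 12 Acomys cells shared beyond the keratins that chose them were compared with the other follicle-like cells of Acomys. The 5 keratins that chose the cells were at least 4-fold higher there by construction, and 3.57% of genes with at least 10 UMIs were too. Tchh had 837 UMIs or 8422 CPM in the 12 cells and 5.23 CPM in the other follicle-like cells, a ratio of 1609 (1065 to 2553). Crnn, which encodes cornulin, a relative of trichohyalin, was at 1992 CPM against 2.05 CPM, and Cdsn, the corneodesmosome protein, at 3773 CPM against 307 CPM, a ratio of 12.3 (10.9 to 13.8). Tgm1, a transglutaminase that crosslinks proteins of cornified cells, had a ratio of 17.7 (11.7 to 26.3) and Krt23 of 34.7 (26 to 46.4). Msx2, a transcription factor of the hair matrix, had a ratio of 15.3 (10.8 to 21.3), and Bambi, an inhibitor of BMP and activin signalling, of 11.1 (8.55 to 14.3). Crnn, Tgm1, Krt23, Cdsn, Msx2 and Bambi, like Krt72, Krt26 and Gata3, were named here after their values were seen, and the first 6 are among the 20 genes of highest ratio that at least 50% of the 12 cells held.

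Keratins of the outer layers were lower in the 12 cells than in the other follicle-like cells. Krt17 was at 503 CPM there and 14783 CPM in the other follicle-like cells of Acomys, Krt15 at 473 against 7836 CPM, Krt5 at 1147 against 5455 CPM and Krt79 at 684 against 5861 CPM. Krt17 and Krt79 were among the markers that named follicle-like clusters, so the compared cells were chosen partly by them. In the Acomys cells outside these clusters Krt17 was at 1749 CPM, Krt15 at 3595 CPM and Krt5 at 6078 CPM. Krt79 was at 357 CPM there, which is below its level in the 12 cells. The follicle markers Lhx2 and Sox9, which helped to name cluster 10, had 0 and 3 UMIs in the 12 cells, against 345 and 303 CPM in the other follicle-like cells. Of the 7 genes measured in a list of inner root sheath genes other than keratins, 3 (Tchh, Cdsn and Cux1) were at least 4-fold higher in the 12 cells and none was at least 4-fold lower, and Cux1 rests on 1 UMI there. Of the 7 companion layer and outer root sheath keratins listed, 4 had a symbol in the Acomys list, and Krt6a, Krt6b and Krt14 had none. Of these 4, none was at least 4-fold higher and 3 were at least 4-fold lower. Of 10 hair matrix and follicle regulators, 4 were at least 4-fold higher and 2 lower, and 1 of the 4, Ovol1, rests on 1 UMI there. The share of all genes at least 4-fold lower in the 12 cells was not counted, so the counts of lower genes have no background beside them. Krt10, a suprabasal keratin, was at 11289 CPM in the 12 cells and 13088 CPM in the other follicle-like cells, and Krt1 at 2375 against 4263 CPM. The single high cell of cluster 3 held 566 of the 1122 Krt10 UMIs and 202 of the 236 Krt1 UMIs of the 12 cells. In the 11 high cells of cluster 10 alone, a choice made after seeing the data, Krt10 was at 6064 CPM, 0.463 of the other follicle-like cells (0.425 to 0.504), and Krt1 at 371 CPM, 0.0870 of them (0.0602 to 0.122). The ratio of Tchh was 1742 in these 11 cells.

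Beside the members, follicle-like cells of the libraries were compared with the other cells over the same lists. Of the 7 inner root sheath genes other than keratins measured in Acomys, 1 (Tchh, 191 CPM in follicle-like and 2.79 CPM in other cells) was at least 4-fold higher, and of the 9 measured in Mus, 1 (Padi4, with 21 UMIs in follicle-like and 6 in other cells) was at least 4-fold higher and 2 were at least 4-fold lower. Mus Tchh had 6.54 CPM in follicle-like cells and 3.73 CPM in the other cells, against 17.2 CPM in Mus free RNA. Of the 15 hair shaft keratins listed, 6 had a symbol in the Acomys list and 13 in the Mus list, so the libraries are not compared over the same genes. In Acomys 2 were measured, of which 1 (Krt32) was at least 4-fold higher. The other (Krt40, at 11.4 CPM in follicle-like and 73.1 CPM in other cells, and with 0 UMIs in Mus cells) was at least 4-fold lower. In Mus 5 were measured, of which 3 (Krt31, Krt32 and Krt33a, the last on 4 UMIs) were higher and none lower. The share of all genes at least 4-fold lower was not counted for these classes either. Krt32, a keratin of the shaft cuticle, had 4.68 CPM in follicle-like cells of Acomys and 169 CPM in those of Mus. Krt32 thus differed in the opposite direction to Krt35. Krt17, a keratin of the outer root sheath, was at 14492 CPM in Acomys follicle-like cells and 3352 CPM in Mus follicle-like cells, and Sox9, a follicle stem cell factor, had 297 CPM in the Acomys class and 280 CPM in the Mus class.

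The genes whose levels over clusters were most like the sum of the 8 keratins were found among those with at least 50 UMIs in cells. Over the 24 Acomys clusters they were Adra2a (Pearson r 0.87), Hapln2 (0.84), Pcp4 (0.83), Cpa6 (0.79), Ppp3ca (0.76), Bambi (0.74), Postn (0.71), Krt17 (0.71), Klk10 (0.70) and 1 gene with an identifier alone. Over the 23 Mus clusters they were Zfp428 (0.88), Gm5860 (0.85), Cox6b2 (0.85), Irx4 (0.84), Tns3 (0.84), Cldn8 (0.84), Irx1 (0.84), Tenm2 (0.83), Irx5 (0.83) and Runx1 (0.83). The lists had no gene in common, and in Mus the sum rests on 300 UMIs over all cells. In Acomys cluster 10 held 72.3% of the summed UMIs in cells. Its 11 high cells had Krt17 at 524 CPM, against 14783 CPM in the other follicle-like cells. A likeness over clusters therefore does not place a gene in the same cells as the keratins.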

How the data were processed

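The authors deposited counts of UMIs per gene and barcode, 1 matrix for each library, and per the submitters' processing notes Cell Ranger 2.2.0 was used. The notes name mm10 as the genome build, and for the Acomys annotation a build was not given in the sources used here. Each matrix held 737280 barcodes, so cells were called here, as barcodes with at least 1 in 10 of the 99th percentile of the UMIs of the top 3000 barcodes and with at least 200 genes. Barcodes over 20% mitochondrial UMIs were removed in Mus, and the Acomys list named no mitochondrial gene. Doublets were removed at 0.8% per 1000 cells by simulated doublets, which took out 183 Acomys and 386 Mus barcodes. Counts were scaled to 10000 UMIs, and 2000 variable genes without the 8 keratins, 30 principal components and 20 neighbours gave Leiden clusters at resolution 1 (Python 3.11.15, NumPy 2.4.6, SciPy 1.17.1, scikit-learn 1.9.0, leidenalg 0.10.2, pandas 2.3.3). A cluster was named by the type with most markers, at least 3, each in at least 20% of its cells and 1.5-fold higher than in other cells. It stayed unnamed where types tied for most markers, or where another type had more markers among the 10 genes leading it. The name was also withheld where the median UMIs were under 1 in 3 of the library median and no leading gene was a marker of the type.

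UMIs were summed per class and given as CPM over shared symbols, which hold 66.8% of Acomys and 62.1% of Mus cell UMIs. Intervals are exact Poisson, Clopper-Pearson or conditional binomial. A gene counted as higher at a ratio of at least 4, with at least 10 UMIs in both sets together and a 0 in the second set replaced by 3 counts. Named genes were the 8 members, up to 4 genes of each list with the highest follicle level, and the 10 genes of each library most like the summed members over clusters by log2 of CPM plus 1; others are marked as chosen after their values were seen. The members and lists were chosen with earlier results of these data known. The scripts were checked on simulated data.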

Additional observations from a re-analysis of the deposited data

How the results depend on the processing

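The summed level of the 8 keratins in Acomys follicle-like cells was 5488 CPM and 33.1-fold that of the other Acomys cells, and all 8 members stayed at least 4-fold higher under each of the alternatives that recomputed this ratio, except the one without the 12 high cells, under which 3 of 8 did. With the members allowed in the clustering the ratio was 26.2, and Acomys over Mus in other cells was 47.4. With cells of at least 1000 UMIs, Acomys follicle-like cells had 5346 CPM and a ratio of 23.5, Mus follicle-like cells had 25.2 CPM and a ratio of 5.72, and Acomys over Mus was 212 in follicle-like and 51.6 in other cells. Without doublet removal the values were 6663 CPM and 29.2 in Acomys, and 455 and 51.0 for Acomys over Mus in follicle-like and in other cells. Resolution 0.5 gave 5147 CPM and 31.3 in Acomys, and resolution 2 gave 6909 CPM and 37.1. Subtracting 10% free RNA gave a ratio of 51.5 in Acomys, 4.30 CPM in Mus follicle-like cells, and 1263 for Acomys over Mus in follicle-like cells. It left no UMI of any member in the other Mus cells, so ratios against that class are bounds, with 3 UMIs as the limit. These were at least 74.5 in Mus, and at least 1801 for Acomys over Mus in other cells. The mean of single-cell CPM gave 18.3 in Acomys and 193 for Acomys over Mus in follicle-like cells. Without the 12 high cells, chosen after seeing the data, Acomys follicle-like cells had 1152 CPM and a ratio of 6.99, Acomys over Mus was 73.4, and Krt25 was at 0.982 of the other Acomys cells, because these cells held most of its UMIs. With Mus cluster 19 counted as follicle-like, also chosen after seeing the data, the Mus ratio was 4.86, against 3.53, and no other summed value left its interval. Free RNA taken from barcodes of 11 to 100 UMIs gave the members 458 CPM for Acomys, against 313 CPM for Mus. Thinned to 1000 UMIs, 37.4% of Acomys follicle-like and 11.4% of other Acomys cells held a UMI of any member, against 1.24% and 0.265% in Mus. The cause of the other shifts was not tested. Mus values rest on 300 UMIs in cells, which limits every Mus ratio. No paired analysis was possible because each species has 1 library and no result comes from a test.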
